A study of Arabidopsis thaliana with 8 samples.

Results

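The Shaker potassium channels and the transporter HAK5 of Arabidopsis thaliana move potassium across the plasma membrane, from uptake by the root to its loading and release in other tissues. The group described here holds 10 genes, of 25383 loci with a probe on the array, and its members were picked by locus, as the named Shaker channels and HAK5. It comprises the inward channels AKT1 (AT2G26650), SPIK (AT2G25600, also called AKT6), AKT5 (AT4G32500), KAT1 (AT5G46240) and KAT2 (AT4G18290), the weakly rectifying channel AKT2 (AT4G22200), the electrically silent subunit KC1 (AT4G32650, also called KAT3), the outward channels SKOR (AT3G02850) and GORK (AT5G37500), and HAK5 (AT4G13420). Transcripts were compared between 4 pools of flower buds and 4 pools of roots from plants of accession Col-0 that were 6 weeks old and grown hydroponically, each pool holding tissue of 8 to 10 plants. All plants were healthy, and no treatment or mutant was included. The labels do not state the potassium content of the growth solution.

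Shaker channels are assemblies of several subunits whose pore opens or closes with the membrane voltage. Inward channels open when the inside of the cell is strongly negative and let potassium in, and outward channels open on depolarisation and let it out. In roots, AKT1 together with the silent subunit KC1 and the high-affinity transporter HAK5 takes up potassium at the epidermis, and SKOR releases it towards the xylem. In the shoot, KAT1 and KAT2 load guard cells when stomata open and GORK empties them when stomata close, AKT2 acts in the phloem, and SPIK acts in pollen tubes.

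Signals are given as the percentage of the 75th percentile of the probe signals on the same array, which was 4661 to 4803 signal units on the flower bud arrays and 2560 to 3574 on the root arrays. A level of 100% thus equals the 75th percentile, and levels of different probes cannot be ranked against each other, because probes differ in brightness. Each difference is a log2 value, flower buds minus roots, ± SE with n = 4 pools per tissue, and comes from a limma fit of all 22264 genes that passed a filter on dim probes. A gene was called when its Benjamini-Hochberg adjusted p was under 0.05 and the difference was 2-fold or more. The pools are separate per the labels, so p-values measure the spread between pools and not between single plants. Where a probe was not above background in a tissue, its SE and p-value also hold the spread of background between arrays. For such probes they do not measure the spread of the transcript between pools of that tissue. Whole organs were sampled, so fewer cells of a type and less RNA per cell cannot be told apart. All arrays lay on 1 slide, the tissues in different rows of it, and these cannot be told apart.

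The tissues matched their labels. All 5 flower organ markers were called higher in flower buds, with a summed signal of 2715% to 3368% on the flower bud arrays and 28.5% to 36.9% on the root arrays. All 4 root hair markers were called higher in roots, with sums of 17.3% to 30.1% on the flower bud arrays and 609% to 922% on the root arrays. The root genes AGL17, TIP2;3 and CASP1 summed to 2.19% to 2.68% on the flower bud arrays and 10771% to 14271% on the root arrays. A summed signal rests mostly on the brightest probes of its list, here TIP2;3, and is not the level of every gene in it.

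Of the 10 genes, 9 were called, in a table where 55.0% of all tested genes were called. Flower buds had higher signals of SPIK, AKT5, KAT1, KAT2 and AKT2, which is 5 of 10 genes beside 30.2% of all tested genes called in that direction. Roots had higher signals of AKT1, KC1, SKOR and HAK5, which is 4 of 10 genes beside 24.8% in that direction. GORK was not called. Each of the 9 fitted differences was 16-fold or more, as was the case for 17.1% of all tested genes, by fitted values that include dim probes. For SPIK and KAT2 the bounds, explained below, were only 3.86-fold and 14.3-fold. With normexp background correction SPIK, AKT5 and KAT2 fell under 16-fold, at log2 differences of 1.11, 2.66 and 2.60, and the other called genes stayed above it. On the root arrays the probes of SPIK, AKT5, KAT1 and KAT2 never stood well above background, nor did that of HAK5 on the flower bud arrays, a state shared by 10.5% of all tested genes. The other 5 genes stood well above background on all 8 arrays, beside 80.7% of all tested genes. All 10 genes passed the filter, and a gene that passed through 1 tissue alone had to be dimmer in the other. On the 9 called probes the arrays of the tissues did not overlap, which held for 42.8% of all tested genes with flower buds above and for 36.4% with roots above. These shares together cover most tested genes, so a lack of overlap was common. Each gene had 1 probe, so no second probe tested the reading, and probe sequences were not used here, so cross-hybridisation between related channels was not tested.

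**Figure D1:**
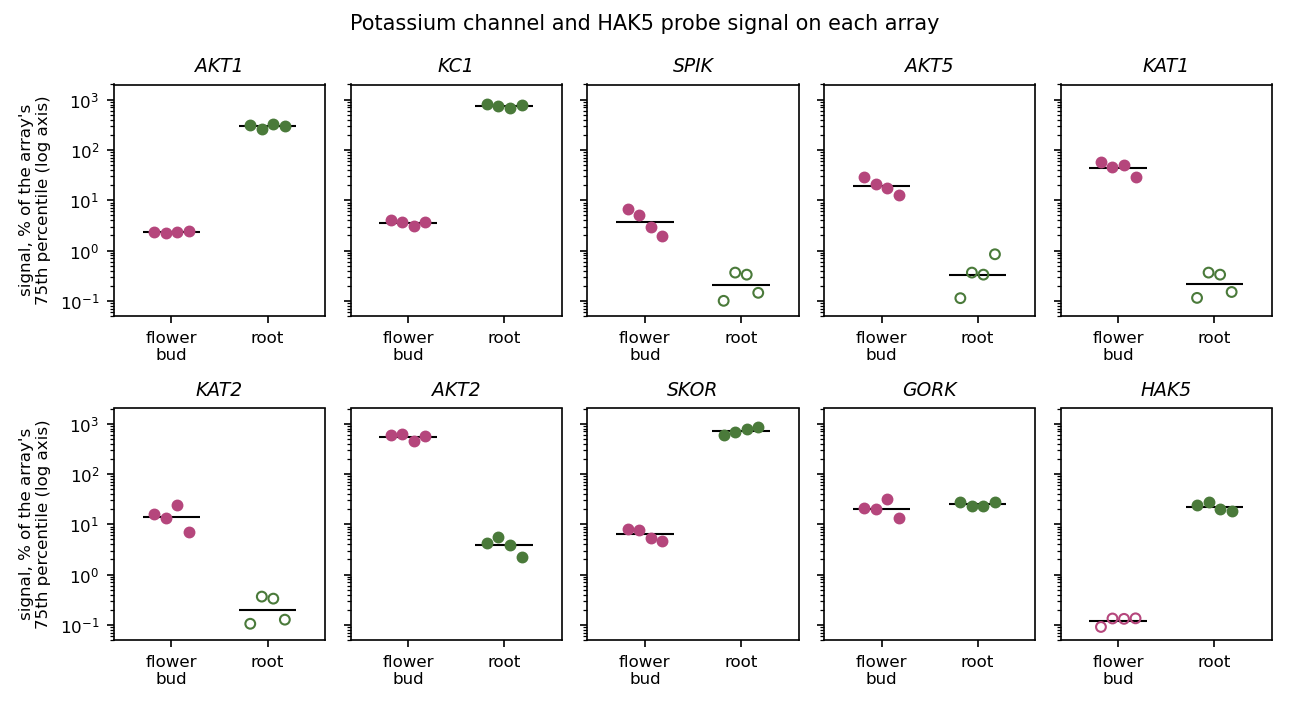
Signal of the 10 genes on each array, as percent of the array's 75th percentile on a log axis, with flower buds left and roots right. Each point is 1 pool, horizontal lines are means of the log2 values, and open points mark tissues in which no array had the probe well above background; AKT1, KC1, SKOR and HAK5 are higher in roots, GORK overlaps, and the other 5 genes are higher in flower buds.

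AKT1 is the main inward channel of root potassium uptake. It had 2.37%, 2.20%, 2.30% and 2.48% of the 75th percentile in flower bud pools 1 to 4, against 308%, 256%, 330% and 296% in root pools 1 to 4. The flower bud signals were all low and nearly equal, yet well above background on every array. The difference was -6.99 ± 0.10 (limma adjusted p = 5.32e-10), or 127-fold higher in roots, and -6.30 under normexp background correction. Measured from the root end, it ranked 773rd of all tested genes.

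KC1 forms no channel of its own and modifies those of AKT1 and the KAT proteins. Its probe had 4.01%, 3.67%, 3.05% and 3.78% in flower bud pools 1 to 4, against 832%, 739%, 669% and 781% in root pools 1 to 4. No pool departed from its tissue by more than a small part of the difference. At -7.70 ± 0.12 (limma adjusted p = 6.45e-10) KC1 had the largest difference towards roots among the 5 genes well above background in both tissues, or 209-fold. Its 95% interval was -7.97 to -7.44, beside -7.22 to -6.76 for AKT1, and the gap between the partner subunits was not tested. RefSeq lists 3 transcripts of KC1, and which of them the probe detects was not tested.

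HAK5 encodes a high-affinity potassium transporter of the KUP/HAK/KT family, known to be induced in potassium-starved roots. It had 0.0910%, 0.134%, 0.132% and 0.135% in flower bud pools 1 to 4, against 24.1%, 27.3%, 19.7% and 18.6% in root pools 1 to 4. No flower bud value was well above background, so they carry no order, whereas all 4 root values were. HAK5 was at least 59.9-fold higher in roots (limma adjusted p = 5.15e-09 for the fitted difference of -7.51 ± 0.18). Such a bound sets the mean of the brighter tissue against, on each array of the dimmer tissue, the lowest signal that counted as well above background or the probe's own signal, whichever was higher. Under normexp, which adds an offset to dim signals, the fitted difference was -4.14, smaller in size than the log2 bound of -5.90. The 59.9-fold bound thus refers to the processed signals and does not hold under normexp. Even for processed signals, the "at least" values in this text are not guaranteed minima. The lowest signal was taken over all probes of an array and is not the detection limit of each probe. In root pool 4 the AKT5 probe was brighter than that lowest signal, yet did not count as well above background.

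SKOR, the outward channel of the root stele, had 8.20%, 7.78%, 5.41% and 4.66% in flower bud pools 1 to 4, against 584%, 691%, 767% and 876% in root pools 1 to 4. Every root pool lay far above every flower bud pool, and the flower bud signal was well above background throughout. The difference was -6.83 ± 0.21 (limma adjusted p = 2.26e-08), or 114-fold higher in roots. Stele markers stood beside it: PHO1, which exports phosphate to the xylem, differed by -6.26 ± 0.12, the xylem proteases XCP1 and XCP2 by -3.03 ± 0.15 and -1.44 ± 0.13, and SHR, which was not called, by -0.43 ± 0.12. The summed stele signal was 549% to 643% on flower bud arrays and 3032% to 3631% on root arrays, and its part in the SKOR result was not tested.

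GORK, the outward channel of guard cells and root hairs, was the exception. It had 20.8%, 19.7%, 31.1% and 13.4% in flower bud pools 1 to 4, against 27.2%, 22.9%, 23.4% and 28.2% in root pools 1 to 4. The tissues overlapped, with the flower bud pools holding both the highest and the lowest value. The difference of -0.32 ± 0.24 did not pass (limma adjusted p = 0.241), and its 95% interval of -0.86 to 0.23 excluded a 2-fold difference either way under this scaling. The sign of this small difference depended on the scaling: it was 0.12 (adjusted p = 0.654) with scaling on the reference genes. It was -0.52 without flower bud pool 3, with an adjusted p of 0.0302, and remained under 2-fold. The paired outward channels thus gave unlike values, with SKOR at -6.83 and GORK at -0.32.

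**Figure D2:**
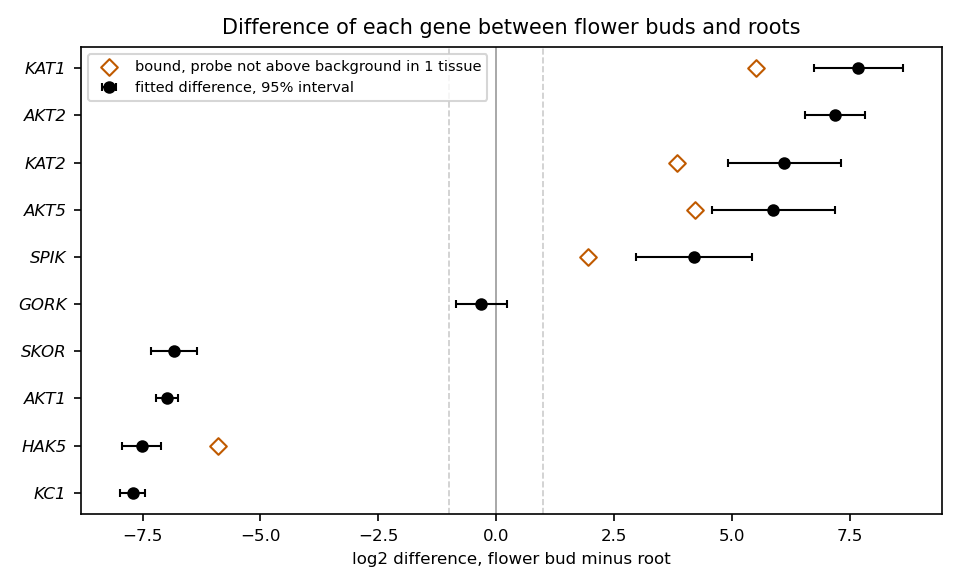
Fitted log2 difference of each gene, flower bud minus root, with 95% intervals from limma, and bounds (diamonds) for probes not well above background in 1 tissue. Dashed lines mark 2-fold; GORK alone lies between them, and the bound of SPIK, at 1.95, lies nearest to them among the other genes.

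KAT1 and KAT2 are inward channels best known from guard cells. KAT1 had 56.3%, 45.3%, 49.3% and 29.1% in flower bud pools 1 to 4, against 0.115%, 0.365%, 0.332% and 0.150% in root pools 1 to 4. KAT2 had 16.3%, 13.1%, 23.99% and 7.04% in flower bud pools 1 to 4, against 0.105%, 0.365%, 0.332% and 0.127% in root pools 1 to 4. Both probes were well above background on all flower bud arrays and on no root array, and flower bud pool 4 was the lowest for both. In root pools 2 and 3 both probes had the same values, as did those of SPIK and AKT5, so these root values carry no order.

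In flower buds KAT1 was at least 45.3-fold higher, with a fitted difference of 7.68 ± 0.41 (limma adjusted p = 4.85e-07). KAT2 was at least 14.3-fold higher, with a fitted difference of 6.10 ± 0.52 (limma adjusted p = 8.92e-06). Under normexp the fitted differences were 4.12 and 2.60, below the log2 bounds of 5.5 and 3.835, so these bounds do not hold under normexp. Of 5 guard cell markers 4 were called higher in flower buds, among them the transcription factor FAMA, at least 35.9-fold, and the anion channel SLAC1, at least 4.46-fold. MYB60, which stood well above background in 3 of the 4 root pools, differed by 3.27 ± 0.38, and the kinase HT1 was not called, at 0.02 ± 0.14. The markers summed to 56.9% to 81.2% on flower bud arrays and 4.15% to 6.94% on root arrays, and their part in the KAT1 and KAT2 results was not tested.

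SPIK, an inward channel of pollen and pollen tubes, and AKT5, its relative in the AKT1 subgroup, were measured in flower buds alone. SPIK had 6.84%, 5.03%, 2.88% and 1.96% in flower bud pools 1 to 4, against 0.100%, 0.365%, 0.332% and 0.145% in root pools 1 to 4. AKT5 had 29.4%, 21.1%, 17.4% and 12.7% in flower bud pools 1 to 4, against 0.113%, 0.365%, 0.332% and 0.844% in root pools 1 to 4. Both genes had their highest signal in flower bud pool 1 and their lowest in pool 4, and the AKT5 signal of root pool 4, although above the other root values, was not well above background.

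In flower buds SPIK was at least 3.86-fold higher, with a fitted difference of 4.19 ± 0.53 (limma adjusted p = 0.000112). AKT5 was at least 18.5-fold higher, with a fitted difference of 5.88 ± 0.57 (limma adjusted p = 1.92e-05). Under normexp the fitted differences were 1.11 and 2.66, both still called but below the log2 bounds of 1.95 and 4.21. All 7 pollen markers were called higher in flower buds, and for 5 of the 7 no root array was well above background. Their summed signal was 402% to 1696% on flower bud arrays and at most 7.27% on root arrays, and their part in the SPIK and AKT5 results was not tested.

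AKT2, the phloem channel that can pass potassium both ways, had 593%, 634%, 451% and 559% in flower bud pools 1 to 4, against 4.34%, 5.71%, 3.85% and 2.24% in root pools 1 to 4. It was the only gene of the 5 higher in flower buds that was well above background on all 8 arrays. The difference was 7.18 ± 0.27 (limma adjusted p = 6.41e-08), or 145-fold, and 6.42 under normexp. Of the phloem markers, SEOR1, APL and PP2-A1 were called higher in roots, at -1.18 ± 0.10, -1.11 ± 0.11 and -1.19 ± 0.15, and SUC2, a sucrose carrier of companion cells, was not called, at -0.61 ± 0.16. Other probes of these genes were at -1.21 and -0.87 for APL, the second not called, at -1.28 for PP2-A1, and at -0.68 and -0.0025 for SUC2, neither called. With scaling on the reference genes SEOR1, APL and PP2-A1 were at -0.75, -0.68 and -0.76 and not called, and APL was not called under normexp either, at -0.95. Their summed signal was 472% to 565% on flower bud arrays and 923% to 1179% on root arrays, and their part in the AKT2 result was not tested.

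The pools of a tissue differed from each other most for SPIK and KAT2 among the 9 genes measured in flower buds. The SD over the 4 flower bud pools was 0.81 for SPIK and 0.74 for KAT2 on the log2 scale, larger than for 95.03% and 94.1% of the 21196 genes well above background on all flower bud arrays, whose median SD was 0.17. AKT5, GORK, KAT1 and SKOR followed at 0.51, 0.50, 0.41 and 0.40. AKT1 was steadier than most genes, at 0.07. In roots the SD was 0.57 for AKT2, larger than for 94.5% of the 19030 genes compared there, and 0.13 to 0.26 for AKT1, KC1, SKOR, GORK and HAK5.

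Deviations from the tissue mean are given beside those of the cell type markers, as values and without a test. In flower bud pools 1 to 4 SPIK deviated by 0.87, 0.43, -0.38 and -0.93. AKT5 deviated by 0.61, 0.13, -0.14 and -0.60 in the same pools. SKOR, at its low flower bud level, deviated by 0.37, 0.30, -0.23 and -0.44. These genes were above their mean in pools 1 and 2 and below it in pools 3 and 4. The median of the 7 pollen markers was 1.04, 0.47, -0.34 and -1.11, with the same signs. Those signs were not particular to the pollen list: the medians were 0.20, 0.09, -0.10 and -0.23 for the flower organ markers and 0.13, 0.05, -0.17 and -0.08 for the stele markers. The part of any of these cell types in the values was not tested.

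KAT2 deviated by 0.24, -0.07, 0.80 and -0.97 in flower bud pools 1 to 4. GORK deviated by 0.03, -0.05, 0.62 and -0.60 in those pools. Both were highest in pool 3 and lowest in pool 4, whereas KAT1, at 0.37, 0.05, 0.17 and -0.59, was highest in pool 1. The median of the guard cell markers was 0.22, 0.21, -0.11 and -0.30, so that pool 3, where KAT2 and GORK were highest, was below the mean for the markers. In root pools 1 to 4 HAK5 deviated by 0.12, 0.30, -0.17 and -0.25, and the median of the root hair markers was 0.26, 0.29, -0.23 and -0.26. AKT1 deviated by 0.06, -0.21, 0.16 and -0.003 there, and KC1 by 0.14, -0.03, -0.17 and 0.05. SKOR deviated by -0.31, -0.06, 0.09 and 0.28, and GORK by 0.10, -0.15, -0.11 and 0.16. Unlike HAK5, none of AKT1, KC1, SKOR and GORK shared the signs of the root hair markers in all root pools. AKT2, at 0.18, 0.58, 0.01 and -0.77 in root pools 1 to 4, was lowest in pool 4. With 4 pools per tissue no relation between genes was tested.

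**Figure D3:**
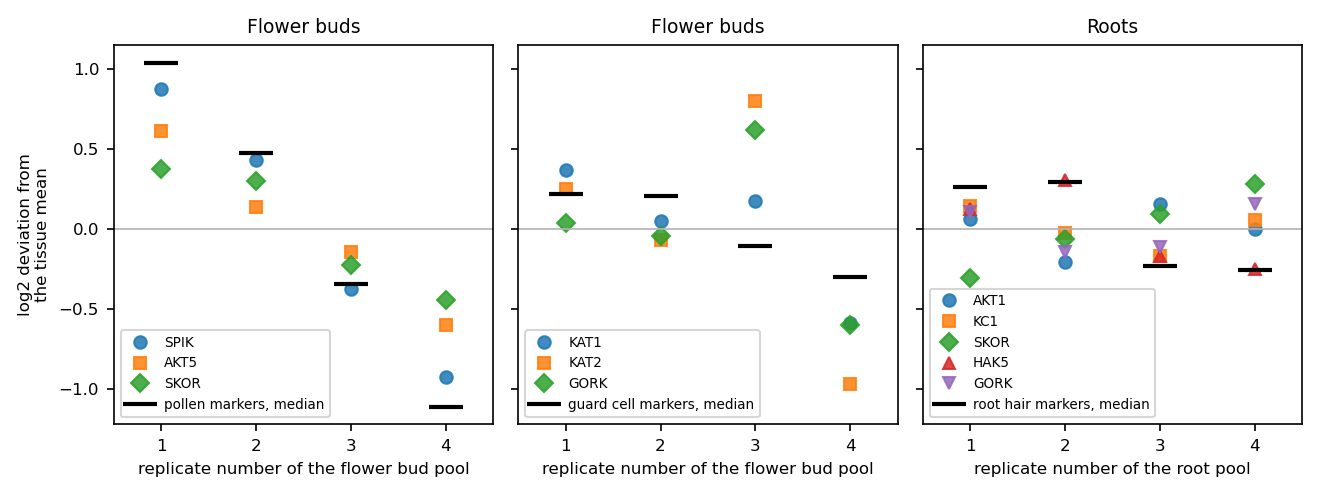
Log2 deviation of single pools from the mean of their tissue, for genes well above background on all 4 arrays of it, with the median of a marker list as black dashes. SPIK and AKT5 lie between 0.93 below and 0.87 above the mean on the same sides as the pollen markers, KAT2 and GORK are highest in flower bud pool 3, and AKT1, KC1, SKOR, HAK5 and GORK stay within 0.31 of their root mean.

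Of the 12 KUP transporters, relatives of HAK5 that move potassium across the plasma membrane and tonoplast, all were well above background on all 8 arrays. In this list 4 were higher in flower buds, 3 were higher in roots and 5 were not called, a share of calls near the 55.0% of all tested genes, with a median difference of -0.65 beside 0.15 for all tested genes. KUP12 and KUP3 led towards flower buds, at 2.93 ± 0.18 and 2.21 ± 0.13, followed by KUP2 at 1.40 ± 0.09 and KUP1 at 1.03 ± 0.14. KUP6 and KUP8, which act in turgor and growth control, led towards roots, at -2.83 ± 0.15 and -2.46 ± 0.15, with KUP10 at -1.93 ± 0.13. The KUP1 difference stood near the threshold and was under 2-fold with centring on the array median, at 0.87, under normexp, at 0.86, with quantile normalization, at 0.90, without flower bud pool 1, at 0.96, and without root pool 1 or root pool 2, at 0.98 each. KUP4, KUP5, KUP7, KUP9 and KUP11 were under 2-fold. With centring on the array median the KUP4 difference, at -1.09, and the KUP9 difference, at -1.13, were called higher in roots. Reference-gene scaling put the KUP11 difference at 1.20, called higher in flower buds. The KUP9 difference, reported at -0.97, was also called with quantile normalization, at -1.03, without flower bud pool 1, at -1.15, and without root pool 4, at -1.07, and a second probe of KUP7 and of KUP9 was called higher in roots, at -1.01 and -1.23.

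Of the tandem-pore channels and the sodium transporter HKT1, 6 of 7 genes were tested. TPK4, a plasma membrane member known from pollen, had a signal at least 8.28-fold higher in flower buds. TPK2 differed by -4.08 ± 0.22 and HKT1, which retrieves sodium from the xylem, by -4.75 ± 0.58. TPK3 and TPK5 were not called, at -0.30 ± 0.21 and -0.84 ± 0.13. KCO3 was not tested, since it stood well above background in 3 root pools and in no flower bud pool. The list had a median difference of -0.57.

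Kinases, calcium sensors and phosphatases known to act on these channels numbered 13, of which 4 were higher in flower buds, 4 higher in roots and 5 not called, with a median of -0.29. This share of calls too was near the 55.0% of all tested genes. CIPK23, the kinase that activates AKT1 and HAK5, had 40.6%, 40.0%, 42.9% and 37.7% in flower bud pools 1 to 4, against 477%, 473%, 411% and 551% in root pools 1 to 4. The tissues were well apart, with a difference of -3.56 ± 0.11 (limma adjusted p = 1.69e-08). Its calcium sensors were unlike: CBL9 differed by -1.72 ± 0.20 and CBL1 was not called, at -0.29 ± 0.18. CBL4, the sensor that with CIPK6 brings AKT2 to the plasma membrane, was higher in roots, at -2.87 ± 0.34, and CIPK6 was not called, at -0.41 ± 0.21. AKT2 itself had the opposite sign.

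Towards flower buds the same list was led by CIPK9, a kinase of low-potassium responses, at 4.96 ± 0.16, and by the phosphatase AIP1, an inhibitor of AKT1, whose signal was at least 10.2-fold higher there. CBL10, a sensor that competes with CIPK23 for AKT1, differed by 4.18 ± 0.14. OST1, the abscisic acid kinase of guard cells, differed by 1.43 ± 0.09 and was under 2-fold with normexp, at 0.58. ILK1, a kinase needed for HAK5 accumulation, was higher in roots, at -2.21 ± 0.17. The phosphatase PP2CA and the kinases CPK33 and CPK21 were not called, at -0.45 ± 0.22, 0.18 ± 0.08 and 0.44 ± 0.10.

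Of 5 trafficking partners and transcription factors with a probe, 2 were higher in roots and none in flower buds, with a median of -0.65. Of all tested genes, 24.8% were called higher in roots and 30.2% higher in flower buds, and a list this small cannot be set apart from those shares. RAP2.11, a transcription factor that activates HAK5, had 0.0965%, 0.0792%, 0.0849% and 0.0838% in flower bud pools 1 to 4, against 54.0%, 37.3%, 20.6% and 23.9% in root pools 1 to 4. The flower bud values were not well above background, and RAP2.11 was at least 85.3-fold higher in roots. SYP121, a membrane fusion protein that binds KC1, differed by -2.36 ± 0.31. VAMP722, its vesicle partner, was not called, at -0.65 ± 0.09, although its other 3 probes were called, at -1.63, -1.11 and -1.38. ARF2, a repressor of HAK5, and MYB77 were not called, at -0.08 ± 0.13 and 0.09 ± 0.44.

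**Figure D4:**
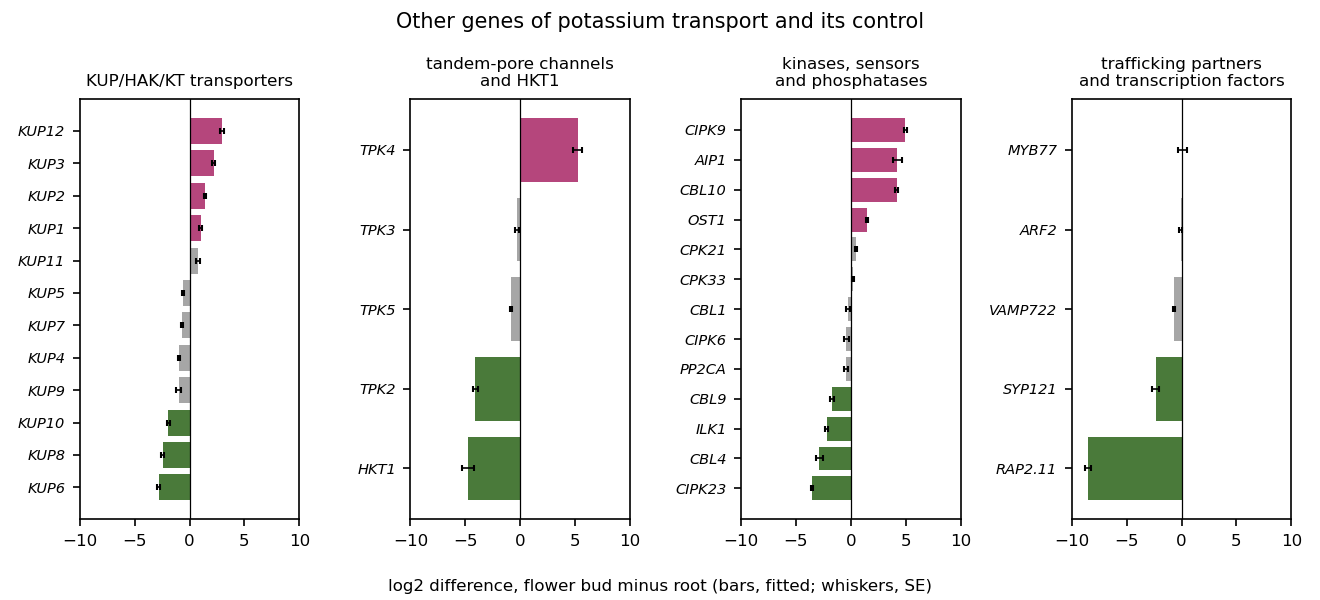
Log2 difference, flower bud minus root, of the tested genes named from 4 lists of potassium transport and its control, as bars with the SE as whiskers. Purple bars were called higher in flower buds, green bars higher in roots and grey bars not called; TPK4, AIP1 and RAP2.11 are fitted values of probes that 1 tissue left dim, and RAP2.11, at -8.52, is the longest bar.

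The genes most like AKT2 and KC1 across the 8 arrays were sought among all tested genes, as those with the smallest root mean square difference of log2 profiles centred on their own mean. With only these tissues, such likeness rests mainly on the size of the tissue difference. For AKT2 they were LACS1, AT1G15260 and LHCB6, with root mean square differences of 0.16, 0.20 and 0.21 and tissue differences of 7.29, 7.34 and 7.23. LACS1 makes acyl-CoA for wax and cutin, and LHCB6 is a light-harvesting protein. For KC1 they were AT4G10540, AT5G39480 and AT5G59680, with root mean square differences of 0.11, 0.12 and 0.13 and tissue differences of -7.63, -7.68 and -7.62.

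In the order of protein-coding genes of the RefSeq table, AKT5 and KC1 have 16 genes between them, and they differed in opposite directions. AKT1 and SPIK, also of opposite direction, have 107 genes between them. Of the 17 tested direct neighbours of the 9 called genes, 5 were called in the same direction as the channel gene or HAK5, 4 in the opposite direction and 8 were not called, a share of calls near the 55.0% of all tested genes. The largest neighbour difference in the same direction was that of AT4G32510, beside AKT5, at 7.58, and the largest in the opposite direction was that of CSLA15 (AT4G13410), beside HAK5, at 4.63; both were picked after their values were seen.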

How the data were processed

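The deposited scanner files give spot intensity on a linear scale, made with Agilent Feature Extraction 10.10.1.1 per the file headers, which also list statistics of background subtraction and detrending. The deposited value table holds log2 values. Compared with the scanner signals, it equals the log2 signal relative to the 75th percentile, centred on each probe's median over the 8 arrays, in the same direction. Its column medians were -0.0084, -0.0559, -0.0417 and -0.0592 for flower bud pools 1 to 4 and -0.0098, 0.0957, 0.0908 and 0.0263 for root pools 1 to 4. It served as an alternative.

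Control spots, 408 identical repeated lines and 6 to 191 outlier spots per array were dropped, and 0 spots were saturated. The log2 processed signals of a probe's spots were averaged, and the array's 75th percentile over probes was subtracted. Of 43603 probes, 34285 matched 1 locus through RefSeq accessions, and each gene used its brightest probe by mean processed signal. A probe stood well above background on an array if at least 50% of its spots did. Genes that did so on all 4 arrays of a tissue entered the test. limma 3.58.1 (R 4.3.3) compared the tissues without other covariates, and the fit was tested on simulated data.

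Members and lists were chosen with earlier results of these data known. The text names all members, all genes of lists of 7 or fewer, elsewhere the 2 called genes farthest from 0 on either side, genes not called, markers, and the 3 nearest profiles of the fully measured member with the largest difference in each direction. KUP1, KUP2, KUP10, CBL9, CBL10, OST1 and ILK1 fall outside that rule and were named after their values were seen. VAMP721 had no matched probe. The value of 1 list gene is not reported here. Alternatives changed the background correction, scaling, filter, source of values, block, variance model, probe and threshold, or left out 1 array. Normexp used the median spot signal in place of the planned mean, which was not used here. The number of arrays limits the precision.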

Additional observations from a re-analysis of the deposited data

Results flagged for a closer look

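Among 130 combinations of a named gene and a tissue with a probe well above background in all 4 pools, 2 held an array far from the other 3, and chance gives about 1 in 20. The kinase gene CIPK6, which is not one of the 10 genes, had a level of 3.81 in root pool 4, as log2 of the signal over the 75th percentile, against 2.84 to 2.96 in the other root pools. The pollen marker AGP6 had a level of -4.77 in root pool 2, against -5.28 to -5.24 in the other root pools. None of the channel genes, nor HAK5, had such an array.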

How the results depend on the processing

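For the 10 genes, all 185 values under the alternatives kept the direction and the call of the reported value, with the single change of sign of GORK, which was never called, at 0.12 with scaling on the reference genes. Part of this count was fixed in advance. The filters, replicate block, variance model and threshold leave the fitted differences of these genes unchanged, and the deposited value table holds the same signals. Of 1203 values of the other 68 named genes under alternatives to the fit, 11 lost the call, 8 gained it and 0 turned round. Testing only genes measured above background in all 8 pools left 4002 genes called higher in flower buds, 1 of the 10 genes called there, 0 tandem-pore genes called there and 1 gene of the trafficking and transcription factor list called higher in roots, since fewer genes were tested. With the adjusted p alone, the genes called higher in roots numbered 8369, 7 of them KUP genes, and with centring on the array median 5 KUP genes. Scaling on the reference genes shifted the median difference by 0.43 and raised the share of calls higher in flower buds to 66.2%, against 55.0% as reported, and centring on the median shifted it by -0.155. Deviations of equally numbered pools correlated at -0.273 to 0.0993, and 1 of the 4 flower bud pools was most like its own number. Different organs of the same plants need not share deviations, so these values cannot show whether equally numbered pools shared plants. With the replicate block the genes called between flower buds and roots numbered 12204, against 12246 without it, and no call of the 10 genes changed. No other probe of the 10 genes exists, so the mean of all probes of a gene repeated their reported differences and tested nothing for them. Dim probes limit the results for SPIK, AKT5, KAT1, KAT2 and HAK5 to bounds, with the lowest signal well above background at up to 19.4 signal units on the flower bud arrays and up to 59.5 on the root arrays. These bounds are not guaranteed minima, since the lowest signal is not the detection limit of each probe. The bounds also depend on the background correction, since the normexp differences of these genes were smaller in size.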

Other observations

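Genes outside the channel group also differed between the flower bud pools. HKT1 had 31.0%, 20.3%, 14.7% and 3.87% of the 75th percentile in flower bud pools 1 to 4, with 305%, 334%, 451% and 414% in root pools 1 to 4. CBL4, the calcium sensor of the salt and AKT2 pathways, had 24.3%, 17.4%, 12.5% and 7.52% in flower bud pools 1 to 4, with 112%, 96.1%, 85.3% and 126% in root pools 1 to 4. Both were highest in flower bud pool 1 and lowest in pool 4, as were SPIK, AKT5, SKOR and KAT1. The same held for the flower organ markers PI, AG and SEP3, but not for AP1 and AP3. RAP2.11 had its highest root signal in pool 1 and HAK5 in pool 2. MYB77 differed within both tissues, with 416%, 387%, 534% and 187% in flower bud pools 1 to 4 and 228%, 227%, 678% and 355% in root pools 1 to 4.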
